A study of Capra hircus with 6 samples.

Results

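Cytosolic ribosomal proteins are the protein parts of the ribosome that translates nuclear-encoded mRNA, and their genes were examined here in the goat hypothalamus before and at puberty. A gene was taken as a member when its goat symbol was RPL or RPS followed by a number. Closing letters (A, X, Y or L) and digits were allowed, as in RPL36AL and RPL7L1. The symbols RPSA, RPLP0, RPLP1 and RPLP2 were also taken. This gave 77 of the 20225 genes in the mRNA table, 45 of the large 60S subunit and 32 of the small 40S subunit. Of these, 70 were core ribosomal proteins and 7 were paralogs, that is, second genes for a similar protein (RPL3L, RPL7L1, RPL10L, RPL22L1, RPL26L1, RPL36AL and RPS27L). The choice used symbols only and no measured value.

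The hypothalamus was taken from 3 pubertal female Anhuai goats of 4.5 to 5.0 months, in the late follicular phase of the estrous cycle, and from 3 prepubertal female Anhuai goats of 2.5 to 3.0 months. Each goat gave 1 strand-specific, ribosomal-RNA-depleted library, so the replicates within a stage were separate animals, and neither stage received a treatment. Stage and age differed together and cannot be told apart. The level of a transcript was given in FPKM (a fragment count divided by transcript length in kilobases and by the library's mapped fragments), and the FPKM of all transcripts of a gene were summed.

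Ribosomal proteins are made in near-equal numbers, because each ribosome carries a single copy of almost every one of them. In mammals their mRNAs are short and abundant and begin with a 5′ terminal oligopyrimidine tract, a run of pyrimidines through which the mTOR pathway, acting by LARP1, adjusts their translation together. In the hypothalamus this pathway is known to respond to nutrient state, and mTOR signalling has been linked to the timing of puberty in rodents. A level of mRNA is therefore one layer of the control of these genes, and translation was not measured here.

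The libraries held hypothalamic and brain transcripts. GFAP of astrocytes lay between 2268.4 and 2698.3 FPKM, SNAP25 of neurons between 466.4 and 555.8 FPKM, and GNRH1, the gene of gonadotropin-releasing hormone, between 5.34 and 15.98 FPKM. The marker AVP was listed at 0 in every library, and MBP was listed at 0 in prepubertal replicate 1 only, and a listed 0 was therefore not taken to mean that a gene is silent. A single transcript of NKD2 held between 21.4% and 52.7% of all FPKM in the mRNA table. As FPKM was given without counts, the depth of single values is unknown. In bulk tissue, fewer cells of a type and less RNA per cell cannot be told apart.

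The genes of the cytosolic ribosome were among the most abundant in the tissue, and most of them sat within a narrow band. The median member had a mean of 754.6 FPKM over the 6 libraries, against 9.78 FPKM for the 16397 genes tested. Means of 100 FPKM or more were seen for 68 members, of 500 or more for 54 and of 1000 or more for 27, and 38 of the 100 most abundant genes of the table were members. The core genes of the small subunit had a median of 909.5 FPKM (n = 31 genes) and those of the large subunit 801.7 FPKM (n = 39 genes).

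RPS29, a small zinc-binding protein of the 40S subunit, was the most abundant member. Its level was 11950.2, 7951.1 and 10507.3 FPKM in pubertal replicates 1, 2 and 3, and 11471.4, 10808.0 and 9625.5 FPKM in the prepubertal replicates. The stages overlapped, and the lowest value was in pubertal replicate 2. RPL36 followed with a mean of 3810.6 FPKM, then RPLP1 with 3426.0, RPS27 with 3368.3, RPL35 with 2470.9, RPS21 with 2287.8, RPL19 with 1826.0, RPS28 with 1489.6 and RPL31 with 1376.7 FPKM. RPS29 stood apart from the others in every library. RPL36, RPLP1 and RPS27 changed order from library to library and did not differ beyond their spread. The main transcripts of RPS29, RPL36, RPLP1 and RPS27 were 312, 281, 330 and 340 nt long. FPKM can be less certain for such short transcripts, so the order by level is uncertain to that extent.

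**Figure D1:**
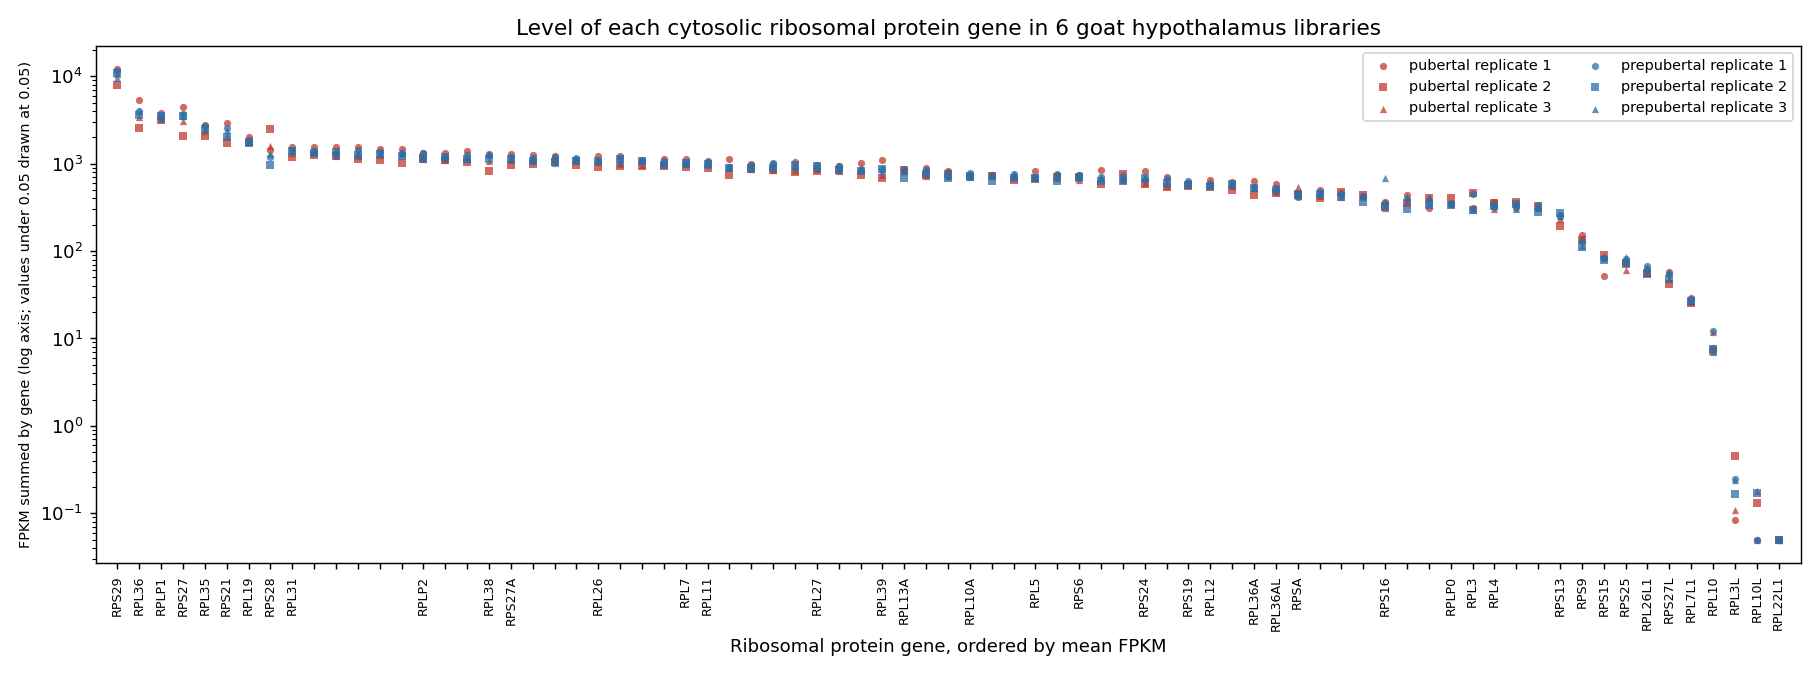
FPKM of each ribosomal protein gene (log axis), ordered from left to right by its mean, with 1 point per library and names for a selection of the genes. Pubertal libraries are red, prepubertal libraries are blue, and symbols mark the replicate. Most genes lie above 100 FPKM with the stages intermingled, and RPS29 is the highest. RPS15, RPS25, RPL10 and the paralogs other than RPL36AL lie below 100 FPKM.

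The least abundant members were mostly paralogs. RPL22L1 was listed at 0 in all 6 libraries. RPL10L, the autosomal copy of RPL10 known from testis, was at 0 in pubertal replicate 1 and prepubertal replicates 1 and 3 and reached 0.179 FPKM at most. RPL3L, a paralog known from striated muscle, had a mean of 0.216 FPKM. RPL7L1 had a mean of 27.1 FPKM. RPL7L1 was thus well above the median gene tested, while RPL22L1 and RPL10L stayed under the minimum mean of 0.1 FPKM used for testing.

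RPL10 was the exception among the core genes. It encodes a 60S protein that is put on late, near the P site of the ribosome, and its level was 7.74, 7.23 and 11.8 FPKM in pubertal replicates 1, 2 and 3, and 12.1, 7.58 and 7.05 FPKM in the prepubertal replicates. The nearest core genes above it were RPS25 with a mean of 73.9 FPKM and RPS15 with 79.0 FPKM. Ribosomal protein genes have many near-identical processed copies in mammalian genomes, so reads can be split between a gene and its copies, and the level of a single member is uncertain to that extent.

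The paralogs differed widely in their level beside the parent gene. RPL36AL stood nearly level with RPL36A, at 91.1%, 106% and 90.1% of it in the pubertal libraries and 97.0%, 95.9% and 100.4% in the prepubertal libraries. RPL26L1 was at 5.59% of RPL26 on average, RPL7L1 at 2.67% of RPL7, RPS27L at 1.52% of RPS27 and RPL3L at 0.0608% of RPL3. Between the stages, an exact two-sided permutation test of the 5 ratios gave p between 0.5 and 0.8, but with 3 against 3 its smallest p is 0.1, so no ratio could have passed. The log2 ratio of RPL3L to RPL3 was lower by 0.47 in the pubertal libraries, and by 1.02 without pubertal replicate 2, at RPL3L levels under 0.5 FPKM. The log2 ratio of RPL36AL to RPL36A was -0.07 ± 0.13 in the pubertal and -0.03 ± 0.03 in the prepubertal libraries (SD, n = 3 each).

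Most members were carried by 1 transcript. Several transcripts were listed for 10 members, and in 8 of these the main one held over 90% of the gene's FPKM. RPS24, a 40S protein whose mRNA is known to be alternatively spliced at its 3′ end, was divided between a transcript of 596 nt and one of 599 nt. The first held 57.5%, 54.8% and 53.7% of RPS24 in the pubertal libraries and 59.3%, 59.1% and 55.9% in the prepubertal libraries. The second held 37.0%, 40.8% and 40.4% in the pubertal libraries and at most 38.1% in the prepubertal libraries. The division was thus near constant from goat to goat, and both transcripts overlapped between the stages.

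Some core genes had no row under their own gene ID. Of 79 core genes listed for this work, 7 were without one (RPL17, RPL23, RPL32, RPL34, RPL35A, RPL37A and RPL41), and a few, such as FAU, carry symbols outside the rule. RPL23 and RPL35A were found under older gene IDs by the accession of their transcripts and were not counted as members. RPL23 had 1276.1, 1102.2 and 1143.5 FPKM in the pubertal and 1180.6, 1092.0 and 1084.0 FPKM in the prepubertal libraries. RPL35A had 2273.8, 1347.8 and 1686.5 FPKM and then 1773.6, 1735.0 and 1798.8 FPKM. Both fell inside the range of the members, with overlapping stages, and with them the median fold change of the members was unchanged at -0.02.

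The ribosomal protein genes as a group did not separate the pubertal from the prepubertal goats. Their summed level was 87318.8, 67383.7 and 74367.7 FPKM in pubertal replicates 1, 2 and 3 and 80913.8, 75024.7 and 76571.5 FPKM in the prepubertal replicates. The mean was 76356.7 ± 10115.3 FPKM in the pubertal and 77503.4 ± 3053.1 FPKM in the prepubertal goats (SD, n = 3 each), a ratio of 0.985. The pubertal goats included both the highest and the lowest sum, so the stages overlapped. As a share of all FPKM other than the NKD2 transcript, the members held 12.2%, 11.3% and 12.2% in the pubertal and 11.8%, 11.7% and 11.6% in the prepubertal libraries.

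Gene by gene, 75 members had a mean FPKM of at least 0.1 and were tested with limma on log2(FPKM + 1), with p-values adjusted by the Benjamini-Hochberg method over all 16397 genes tested. Adjusted p-values under 0.05 were reached by 0 members, and by 0.0% of all genes. The smallest adjusted p of a member in limma was 0.882. At an unadjusted p under 0.05 there were 2 members, RPS28 and RPS9, both higher in the pubertal goats, and 0 members lower, where 3.51% of all genes passed in the higher and 1.65% in the lower direction (575 and 271 genes, and 462 and 377 with quantile normalization). The members' share, 2.67%, did not exceed the 5.16% of all genes that passed in either direction.

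The fold changes were small. Their median was -0.02 on the log2(FPKM + 1) scale, against -0.001 for all genes, and they ran from -0.35 for RPS16 to 0.64 for RPS28. In 59 of 75 members the fold change lay within 0.1 of 0 on that scale, and in 5 it reached 0.2 in either direction. Standard errors ran from 0.09 to 0.29, with a median of 0.13. The 95% interval from limma stayed inside a 2-fold change either way for 74 of 75 members and inside a 1.5-fold change for 68. RPS28 was the member whose interval went past 2-fold. RPL3L, at a mean of 0.216 FPKM, is counted among the 68, but this scale understates changes at such low levels. The interval of RPL3L therefore does not bound the change in its level.

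The sign of this small shift depended on the scaling. The fold change was above 0 in 29 members and below 0 in 46, where 49.8% of all genes were above 0. With quantile normalization 54 members were above 0 and 21 below, and the median moved to 0.04. After each library's trend with transcript length was removed, 49 were above and 26 below, with a median of 0.03. Leaving out pubertal replicate 2 gave 55 above and 20 below, and leaving out pubertal replicate 1 gave 20 above and 55 below. No direction is therefore given for the members as a group.

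**Figure D2:**
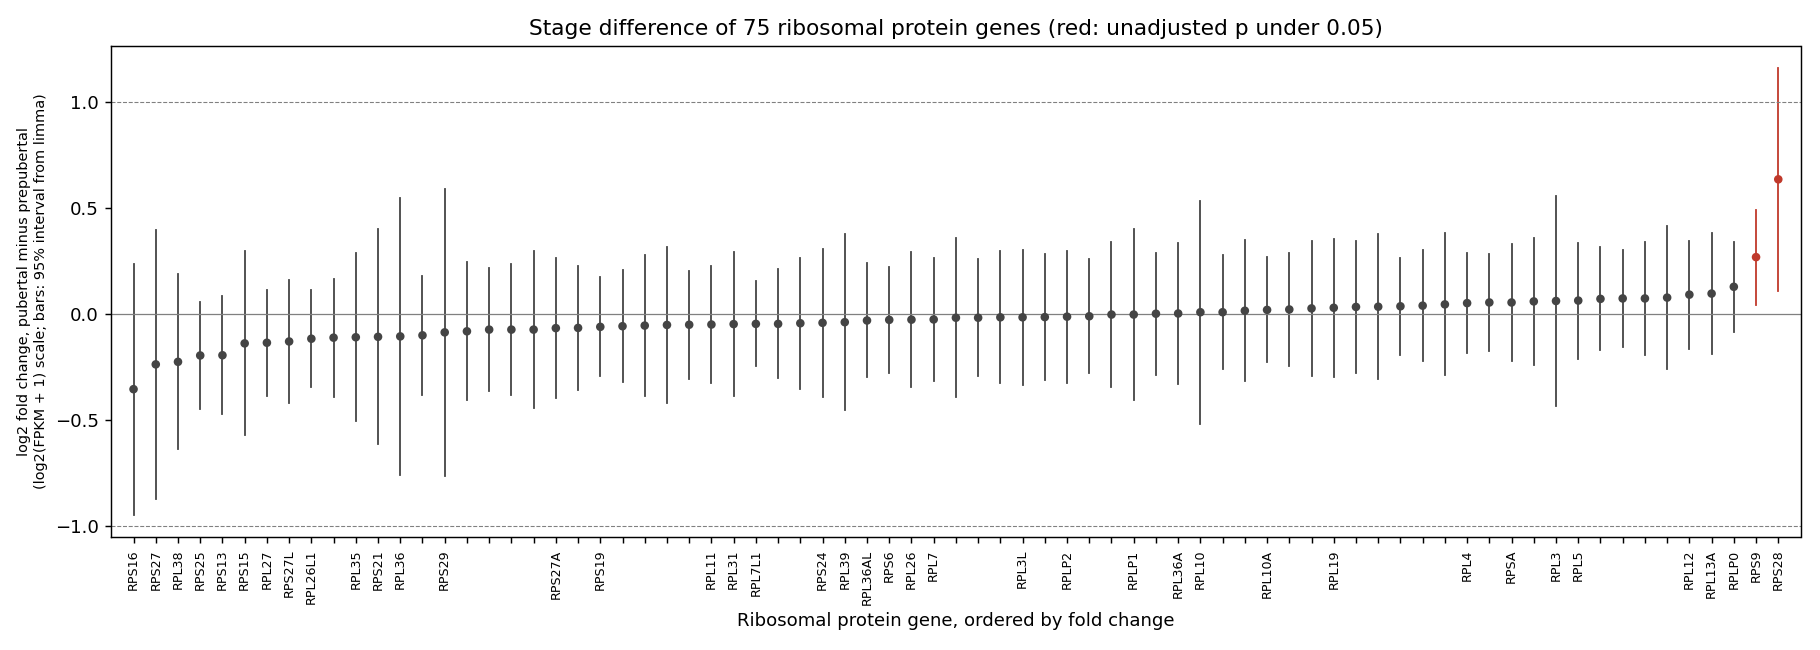
Log2 fold change of 75 ribosomal protein genes, pubertal minus prepubertal, on the log2(FPKM + 1) scale, with 95% intervals from limma, dashed lines at a 2-fold change and names for a selection of the genes. RPS28 and RPS9, in red, are the genes with an unadjusted p under 0.05, and the intervals of all other genes drawn include 0.

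RPS28, a small 40S protein at the mRNA exit site, had the largest fold change. Its level was 1418.6, 2478.2 and 1590.5 FPKM in pubertal replicates 1, 2 and 3, and 1197.7, 969.5 and 1283.2 FPKM in the prepubertal replicates. The stages did not overlap, with pubertal replicate 2 far above the rest. The fold change was 0.64 (SE 0.23, limma unadjusted p = 0.0233, 95% interval 0.11 to 1.16). Without pubertal replicate 2 it was 0.40 and no longer under an unadjusted p of 0.05, and this was also so without prepubertal replicate 2, at 0.52. In pubertal replicate 2 most short members were low, as described below, and RPS28 was one of 2 of the 19 members under 500 nt that lay above their own mean there.

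RPS9, a 40S protein known for its part in the fidelity of decoding, lay between 110.0 and 154.2 FPKM. It had 154.2, 135.5 and 136.7 FPKM in the pubertal and 128.8, 110.0 and 114.9 FPKM in the prepubertal libraries. All pubertal goats were above all prepubertal goats, by a margin smaller than the range within either stage. The fold change was 0.27 (SE 0.10, limma unadjusted p = 0.0246, 95% interval 0.04 to 0.49). Without a single library it ran from 0.21 to 0.33, and it was no longer under an unadjusted p of 0.05 without prepubertal replicate 2, at 0.22, or without prepubertal replicate 3, at 0.25.

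Besides RPS28 and RPS9, the stages did not overlap in RPLP0, higher in the pubertal goats, and RPL27, lower. These 4 of 75 members, 3 higher and 1 lower, compare with 9.75% of all genes whose stages did not overlap, 5.91% higher and 3.84% lower, so they were no more frequent among the members. RPLP0, the base of the ribosomal stalk and a common reference gene in qPCR, had 359.3, 402.4 and 365.1 FPKM in the pubertal and 344.6, 338.8 and 345.5 FPKM in the prepubertal libraries. Its fold change was 0.13 (SE 0.09, limma unadjusted p = 0.199). RPL27, a 60S protein, had 861.7, 814.2 and 865.3 FPKM and then 957.0, 931.6 and 901.5 FPKM, a fold change of -0.13 (SE 0.11, limma unadjusted p = 0.248). Neither passed the test.

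The other members with the smallest p-values had overlapping stages. Among those with a positive fold change, RPL13A was at 0.10 and RPL12 at 0.09, with limma unadjusted p-values of 0.456 and 0.432. RPL13A was at 0.002 without prepubertal replicate 2, and RPL12 at 0.03 without pubertal replicate 1. Among those with a negative fold change, RPS25 was at -0.20, RPS13 at -0.19 and RPL38 at -0.23, with limma unadjusted p-values from 0.115 to 0.246, and RPL26L1 was at -0.12. RPL38, a 60S protein known for its effect on the translation of Hox mRNAs in mouse embryos, had 1304.4, 824.9 and 1075.1 FPKM in the pubertal and 1262.2, 1143.7 and 1278.7 FPKM in the prepubertal libraries. Its fold change ran from -0.38 to -0.05 when single libraries were left out.

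RPS16 showed how 1 library can make a fold change. This 40S protein, whose tail reaches the P site, had 364.6, 325.8 and 308.6 FPKM in the pubertal and 350.5, 323.4 and 677.0 FPKM in the prepubertal libraries. Prepubertal replicate 3 was alone at the higher level, and the other 5 libraries lay together. The fold change of -0.35 (SE 0.26, limma unadjusted p = 0.205) became -0.02 without that library. RPS15, another 40S protein, was low in pubertal replicate 1 alone, at 52.4 FPKM, where the rest ran from 79.7 to 89.6 FPKM.

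RPL3, a large protein of the 60S core near the peptidyl transferase centre, fell into 2 levels that crossed the stages. The higher level was seen in pubertal replicate 2, at 464.8 FPKM, and prepubertal replicate 1, at 453.7 FPKM, while the remaining libraries ran from 293.8 to 314.3 FPKM. RPL10 also had its 2 higher values in different stages, in prepubertal replicate 1 and pubertal replicate 3. The library that was high for RPL10 in the pubertal goats was low for RPL3. RPL36 ran from 2536.2 FPKM in pubertal replicate 2 to 5377.9 FPKM in pubertal replicate 1, with the prepubertal libraries in between.

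**Figure D3:**
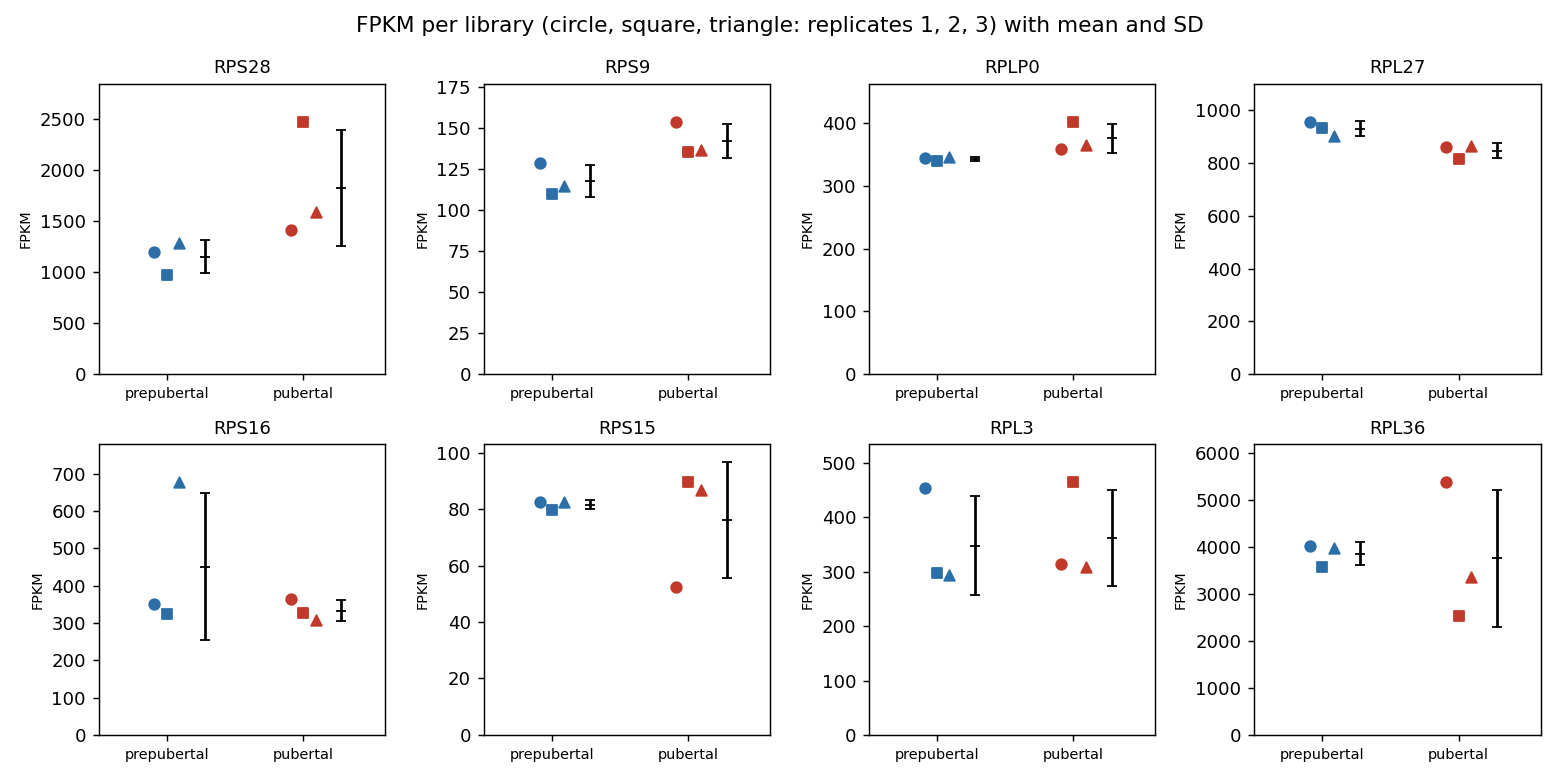
FPKM of 8 ribosomal protein genes in each library (linear axes from 0), with the mean and SD of each stage beside the points. RPS28, RPS9, RPLP0 and RPL27 have stages that do not overlap, whereas in RPS16, RPS15, RPL3 and RPL36 the values set apart are in single libraries or in libraries of both stages.

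The functional groups inside the ribosome varied little with stage. In the stalk, which recruits the elongation factors, RPLP1 was at -0.00 and RPLP2 at -0.01 on the log2 scale of fold changes. In the 5S particle, which also binds MDM2 when ribosome assembly is disturbed, RPL5 had 817.9, 665.7 and 691.1 FPKM in the pubertal and 710.2, 680.3 and 682.1 FPKM in the prepubertal libraries. RPL11 of the same particle had 1035.1, 889.6 and 985.7 FPKM and then 1058.9, 984.6 and 963.5 FPKM. At the exit tunnel, RPL4 had a fold change of 0.05 and RPL39 of -0.04. All of these overlapped between the stages except RPLP0.

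RPS6, the 40S protein phosphorylated by the S6 kinases, had 738.7, 694.9 and 649.7 FPKM in the pubertal and 741.5, 682.8 and 696.6 FPKM in the prepubertal libraries, a fold change of -0.03. RPSA, a 40S protein also known as the laminin receptor, had 414.0, 445.8 and 534.6 FPKM and then 467.0, 442.1 and 426.4 FPKM, a fold change of 0.06. Some ribosomal proteins are made as fusions with ubiquitin or a ubiquitin-like protein. RPS27A was at -0.07 in fold change, and FAU, which the symbol rule does not take in, was at 0.04, with a mean of 894.1 FPKM in the pubertal and 871.3 FPKM in the prepubertal libraries. None of these genes passed the test, and the values of each overlapped between the stages.

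The spread of most members from library to library was small. The SD of log2(FPKM + 1) over the 6 libraries had a median of 0.12 in the 68 members with a mean of 100 FPKM or more and 0.15 in the 912 other genes at that level. Within stages the medians were 0.12 and 0.14. The difference between the sets was not tested. Of the 68 members, 46 lay at or under the median of those other genes. The steadiest were RPL10A with an SD of 0.06 and RPS19 with 0.07, and the most variable were RPS28 with 0.46, RPS16 with 0.42, RPS27 with 0.37, RPL36 with 0.36, RPL10 with 0.33 and RPL3 with 0.31.

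Much of the spread ran along the libraries rather than along the stages. Pubertal replicate 1 was the highest library for 47 of 75 members, and pubertal replicate 2 was the lowest for 43. In pubertal replicate 1, 61 members were above their own mean over the 6 libraries, against 15 in pubertal replicate 2 and 20 in pubertal replicate 3. In prepubertal replicates 1, 2 and 3 the numbers were 65, 23 and 43. The median deviation from that mean was 0.14, -0.12 and -0.05 in the pubertal and 0.06, -0.05 and 0.01 in the prepubertal libraries on the log2 scale, so the widest gap was between goats of the same stage.

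Other abundant genes also deviated by library. The 912 other genes with a mean of 100 FPKM or more had median deviations of 0.08, -0.09 and -0.14 in the pubertal and 0.09, 0.00 and 0.05 in the prepubertal libraries, whereas the medians over all genes tested stayed within 0.02 of 0. Pubertal replicate 1 was above and pubertal replicate 2 below 0 for both sets, but the order of the libraries was not the same. Pubertal replicate 3 was the lowest library for the other abundant genes and only slightly low for the ribosomal protein genes. This difference between the sets was not tested.

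The length of the transcript moved with the spread. The members' main transcripts were short, with a median of 592 nt and a range of 281 to 2476 nt, against a median of 2189 nt for the genes tested, and 26.0% of members were under 500 nt against 3.96% of genes. Among the members with a mean of 100 FPKM or more, the median SD was 0.18 in the 18 under 500 nt and 0.11 in the 50 longer ones. Among the other abundant genes it was 0.24 in the 134 under 500 nt and 0.14 in the 778 longer ones. Over the 74 members with a mean of 1 FPKM or more, log2 length and the SD had a correlation of r = -0.47, and over the 70 core members log2 length and log2 level had r = -0.40. These are descriptions across genes that share the same 6 libraries.

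In pubertal replicate 1 the median deviation was 0.21 for the members under 500 nt and 0.12 for the longer ones, and in pubertal replicate 2 it was -0.23 and -0.11. RPS27, a zinc-binding 40S protein with a transcript of 340 nt, shows this at the level of a gene. It had 4399.5, 2070.4 and 3039.9 FPKM in the pubertal and 3734.9, 3480.5 and 3484.4 FPKM in the prepubertal libraries. The pubertal values thus lay on both sides of the prepubertal ones. The part of transcript length in the spread of the members was not tested beyond the removal of its trend, after which RPS28 and RPS9 remained the members with an unadjusted p under 0.05.

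**Figure D4:**
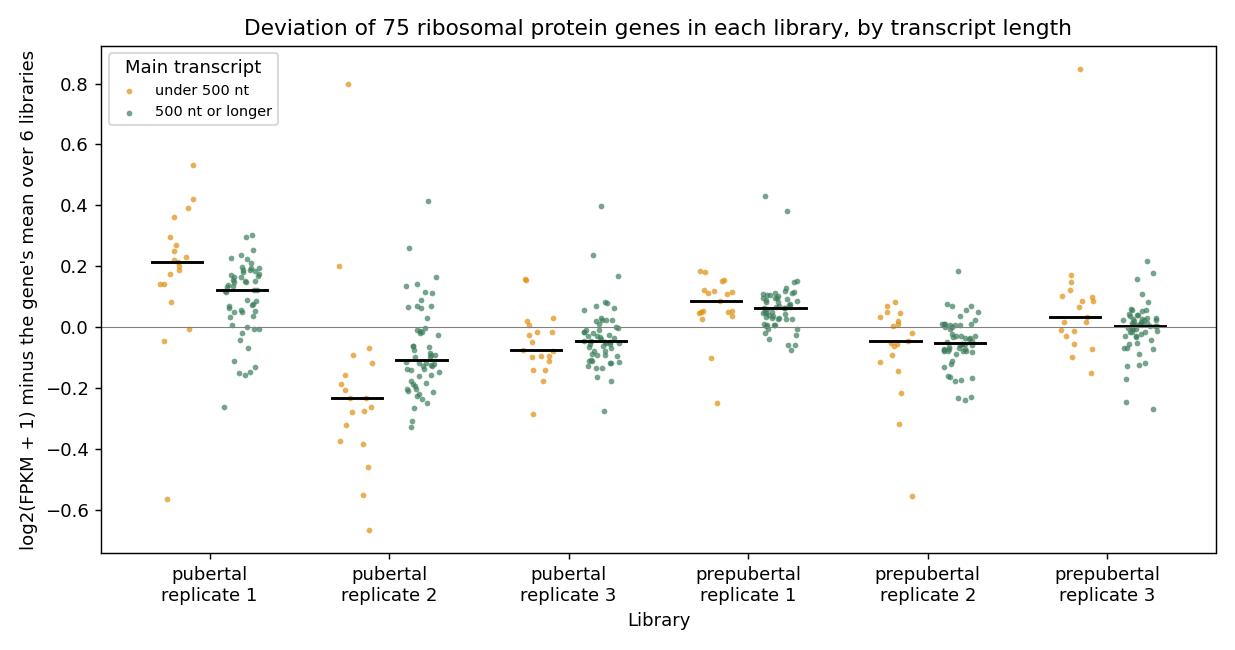
Deviation of each of 75 ribosomal protein genes from its own mean over the 6 libraries, in log2(FPKM + 1), by library and by length of the main transcript. Black bars are medians. Pubertal replicate 1 sits highest and pubertal replicate 2 lowest, and genes under 500 nt (medians 0.21 and -0.23) lie further from 0 there than longer genes (0.12 and -0.11).

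Leaving out pubertal replicate 1 changed the count of members. Without it 6 members were lower at an unadjusted p under 0.05 (RPS24, RPS27L, RPL39, RPS27, RPS13 and RPL38), which is 8.0% of the members against 7.56% of all genes, beside RPS28 and RPS9 in the higher direction, and the median fold change was -0.10. The number of all genes under that p rose from 846 to 2220 in the same fit. The 6 members had been at fold changes from -0.24 to -0.04 with all 6 libraries. No member reached an adjusted p under 0.05 in limma with any library left out.

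Few genes that make or use ribosomes passed the unadjusted test, which 5.16% of all genes passed. Of 33 tested genes of ribosome biogenesis, 0 passed an unadjusted p under 0.05 in limma, and their median fold change was -0.02, which ran from -0.08 without pubertal replicate 1 to 0.01 without prepubertal replicate 1. The smallest p-values of that list were those of NOP10, a part of the H/ACA particles that guide pseudouridylation, at -0.21, then RRP1, NOP16 and POLR1C. Of 9 genes listed as elongation factors by symbol 0 passed, with a median of 0.01 that became 0.09 without pubertal replicate 3. EEF2, the translocase, had 400.7, 402.5 and 398.4 FPKM in the pubertal and 364.6, 346.2 and 368.7 FPKM in the prepubertal libraries. Its stages did not overlap, and its fold change was 0.16 (SE 0.09, limma unadjusted p = 0.117). EEF1E1, an elongation factor by symbol only, was at -0.22, EEF1D at 0.14 and EIF5A at 0.18.

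Of 37 initiation factors and poly(A)-binding proteins, 1 was higher and 0 were lower at an unadjusted p under 0.05, against 3.51% and 1.65% of all genes. The median was -0.04, which became 0.02 without pubertal replicate 3 and -0.07 without pubertal replicate 1. The gene that passed was PABPC1, the cytoplasmic poly(A)-binding protein, with 34.1, 32.6 and 39.3 FPKM in the pubertal and 26.4, 29.6 and 26.4 FPKM in the prepubertal libraries. The stages did not overlap, and the fold change was 0.35 (SE 0.10, limma unadjusted p = 0.00835, adjusted p = 0.795). EIF1 followed at 0.20, EIF5B at 0.18 and EIF2S2 at -0.14.

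PABPC1 also belongs to a list of 19 other genes whose mRNAs carry a 5′ terminal oligopyrimidine tract. TPT1, the gene of a translationally controlled protein, is in it under 2 gene IDs. In that list 14 of 19 fold changes were above 0, with a median of 0.07. PABPC1 was the 1 gene with an unadjusted p under 0.05, against 5.16% of all genes. After PABPC1 the smallest p-values were those of EEF2, EEF1D and TPT1. The more abundant gene ID of TPT1 had 1107.2 ± 126.0 FPKM in the pubertal and 1056.4 ± 32.9 FPKM in the prepubertal libraries (SD, n = 3 each), with a fold change of 0.06, and the other had 212.5 ± 19.2 and 192.1 ± 15.1 FPKM, with a fold change of 0.14. Without pubertal replicate 1 the median of the list was 0.01. The difference of this list from the ribosomal protein genes, which carry the same kind of tract, was not tested.

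Among 14 regulators of ribosomal protein synthesis, 1 was higher and 0 were lower at an unadjusted p under 0.05, against 3.51% and 1.65% of all genes. The gene that passed was MYC, a transcription factor that drives ribosome production, with 1.32, 1.29 and 2.05 FPKM in the pubertal and 1.12, 0.920 and 1.01 FPKM in the prepubertal libraries. Its fold change on the log2(FPKM + 1) scale, which understates changes at such low levels, was 0.33 (SE 0.14, limma unadjusted p = 0.0476, adjusted p = 0.961). RPS6KB1, an S6 kinase, was at 0.17 with stages that did not overlap, while MLST8 of the mTOR complexes was at -0.20 and RHEB, an activator of mTOR, at -0.21.

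Genes of the other ribosome of the cell, in the mitochondrion, leaned in 1 direction. Of 74 mitochondrial ribosomal protein genes, 12 had a fold change above 0, the median was -0.11, and 7 were lower and 0 higher at an unadjusted p under 0.05, against 1.65% and 3.51% of all genes. In 13 of them all pubertal goats were below all prepubertal goats, against 3.84% of all genes. MRPS12 had 32.9, 28.9 and 24.8 FPKM in the pubertal and 37.9, 39.7 and 41.9 FPKM in the prepubertal libraries, a fold change of -0.46 (SE 0.11, limma unadjusted p = 0.00361, adjusted p = 0.733). MRPL1 was at -0.36, MRPL34 at -0.23 and MRPL35 at -0.26. With adjustment, 0 of the 74 passed.

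The mitochondrial list was lowest in pubertal replicate 3, with a median deviation of -0.19, and highest in prepubertal replicate 1, with 0.15. Without pubertal replicate 3 its median fold change was -0.04, and without prepubertal replicate 1 it was -0.08. The list of oxidative phosphorylation held 59 genes with NDUF, SDH or ATP5 symbols. It held no UQCR, CYC1 or COX gene and so covered only a part of the respiratory chain and its ATP synthase. In it 6 fold changes were above 0, and the median was -0.14. At an unadjusted p under 0.05, 2 genes were lower (SDHD at -0.19 and NDUFB10 at -0.24) and 0 higher, against 1.65% and 3.51% of all genes. The median of the list ran from -0.21 without pubertal replicate 1 to -0.09 without pubertal replicate 3. ATP5I at -0.54 and NDUFS4 at -0.28 came next. Between the cytosolic ribosomal protein genes and either list, the difference in fold change was not tested.

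**Figure D5:**
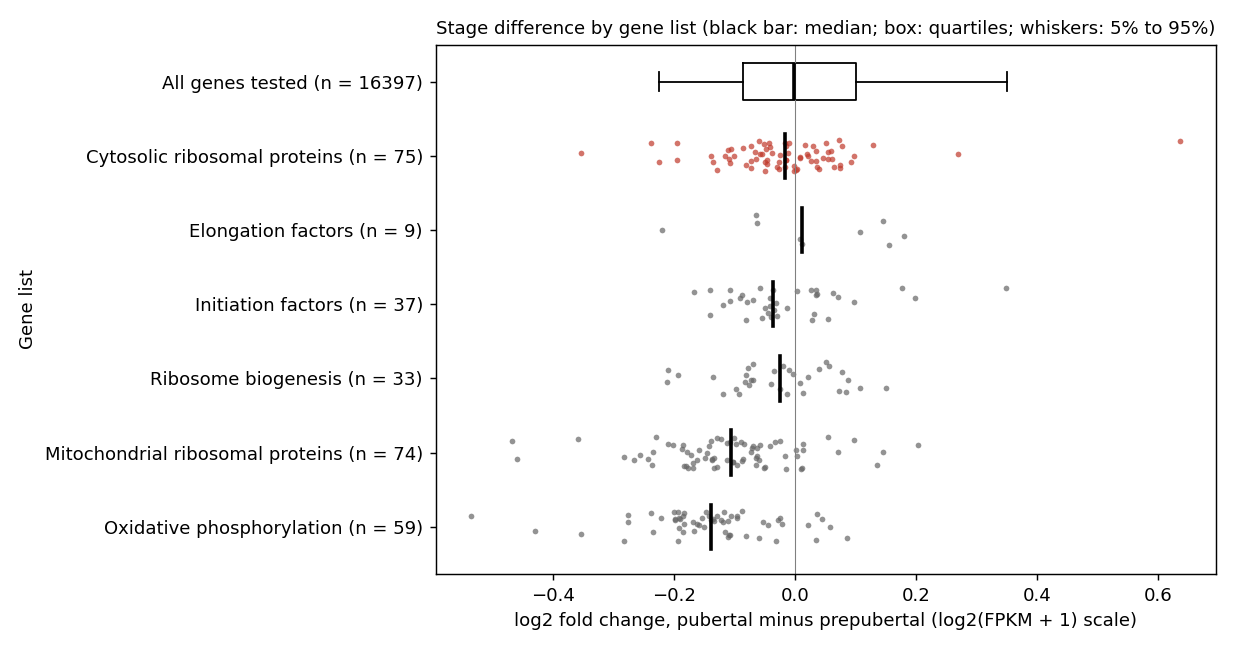
Log2 fold change, pubertal minus prepubertal, of the genes in each list, with 1 point per gene and black bars at the medians. All genes tested are drawn as a box of quartiles with whiskers from 5% to 95%. The cytosolic ribosomal proteins centre near 0 (median -0.02), with mitochondrial ribosomal proteins at -0.11 and oxidative phosphorylation (NDUF, SDH and ATP5 genes only) at -0.14.

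Markers of some neighbouring tissues differed between the stages, while those of others overlapped. The summed level of 5 markers of meningeal fibroblasts was 109.1 to 259.6 FPKM in the pubertal and 41.8 to 81.4 FPKM in the prepubertal libraries. Of these, 4 of 5 were at an unadjusted p under 0.05, against 5.16% of all genes. For 5 markers of the anterior pituitary the sum was 52.5 to 65.7 FPKM against 3.05 to 20.0 FPKM, with 3 of 5 at that p. Most of that sum was a single gene, CGA, with 50.1, 62.5 and 39.5 FPKM in the pubertal and 2.24, 18.0 and 3.32 FPKM in the prepubertal libraries. GH1 was above 0 in pubertal replicate 3 only, at 7.79 FPKM, and POU1F1 reached 0.539 FPKM at most. Neurons, with 4 markers summing to 965.4 to 1183.5 FPKM in the pubertal and 1093.9 to 1207.6 FPKM in the prepubertal libraries, overlapped. The 4 markers of the choroid plexus, at 4.66 to 315.8 and 6.08 to 56.9 FPKM, and the 2 of blood overlapped as well, with 0 at that p. Of 6 markers of hypothalamic neurons 3 were at that p, and their sums overlapped (1059.5 to 2247.2 and 1152.0 to 2229.4 FPKM). In these lists only AVP was at 0 in all libraries. The part of these tissues in the levels of the ribosomal protein genes was not tested.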

How the data were processed

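RNA of the hypothalamus of 3 pubertal and 3 prepubertal goats was sequenced, with 1 library per goat. Per the labels and the methods of the study, the authors aligned the reads with TopHat 2.0.9 and Bowtie 2.0.6, assembled transcripts with Cufflinks 2.1.1 and Scripture, and obtained FPKM per transcript with Cuffdiff 2.1.1. The deposited values are FPKM, from which depth cannot be known and counting error cannot be computed. FPKM scales by transcript length and by the mapped fragments of the library, and the estimate is less certain for transcripts near the fragment length. The comparison table of the authors (group means, fold changes and p-values) was used only to pair transcripts with gene IDs and to give transcript lengths. The lncRNA table was not used here.

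FPKM of 30679 mRNA transcripts was summed over 20225 gene IDs, of which 19083 (94.4%) had a symbol in RefSeq's genes for the goat assembly ARS1.2. The study's build is not given in the sources used here, so no coordinates are printed. The rule was met by 81 RefSeq symbols, of which 77 had FPKM, from 92 transcripts. Genes with a mean of at least 0.1 FPKM were tested with limma 3.58.1 in R 4.3.3 (lmFit, then eBayes with a mean-variance trend) as a two-sided test on log2(FPKM + 1), with stage as the only term and Benjamini-Hochberg adjustment over 16397 genes at a threshold of 0.05. The fit was tested on simulated data. Paralog ratios were compared by an exact permutation test. Tables were made with pandas 2.3.3 and numpy 2.4.6 in Python 3.11.15, permutation tests with scipy 1.17.1 and plots with matplotlib 3.10.9.

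The genes named were the 10 most and 5 least abundant members, up to 6 per direction with the smallest p, the 6 with the largest SD, members at 0 in some libraries, paralog pairs, the stalk, 5S particle, exit tunnel and ubiquitin fusion genes, RPS6, RPSA, and up to 4 genes of each related list with the smallest p. RPS15, RPS24, RPL10A, RPS19, RPL23, RPL35A and NKD2, and the 6 members that passed without pubertal replicate 1, were named after their values were seen. Some genes that the rule takes in are not reported here. The members and lists were chosen with earlier results of these data known. The alternatives were a pseudocount of 0.1, no minimum, a minimum mean FPKM of 1, median centring, quantile normalization, limma without a trend, the replicate number as a block, the most abundant transcript only, transcripts with mixed zeros left out, and each library left out in turn. Removal of the trend with transcript length and the match by transcript accession were added after seeing the data.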

Additional observations from a re-analysis of the deposited data

How the results depend on the processing

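The fold changes of RPS28, RPS9 and the other 10 members with the smallest p kept their sign in every alternative run. The count of members with an adjusted p under 0.05 in limma was 0 in every alternative. Over all genes it was 1 with the replicate number as a block, and from 0 to 4 with single libraries left out. The replicate block left the members' counts at 2 higher and 0 lower. Replicate numbers do not pair the goats: deviations of same-numbered libraries correlated at -0.0286, -0.107 and 0.0876 over 14081 genes. With single libraries left out, members higher at an unadjusted p under 0.05 ran from 0 (without prepubertal replicate 2) to 2 and members lower from 0 to 6 (without pubertal replicate 1). The genes higher ran from 336 to 981 and the genes lower from 164 to 1239, with the fewest without prepubertal replicate 1 and the most without pubertal replicate 1. The median fold change of the members ran from -0.10 to 0.03, of elongation factors from -0.010 to 0.088 (the most without pubertal replicate 3) and of regulators from -0.012 to 0.045. The difference in summed FPKM ran from -6627.7 to 3339.9. The cause was not tested. Paralog ratios could not pass 0.05 in any alternative, since 3 against 3 cannot. The sequence at the start sites of the members was not analysed here. Without read counts, what depth limits could not be measured.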
